A study of Mus musculus with 19 samples.

Results

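The 7 genes described here encode lipocalins that are secreted into the fluid of the nose and the vomeronasal organ (VNO): the odorant-binding proteins Obp1a, Obp2a and Obp2b, the lipocalins Lcn3, Lcn4 and Lcn11, and the major urinary protein Mup4. They were chosen as lipocalin genes of nasal and vomeronasal glands, with earlier results of these data known. They make up 7 of the 35596 genes in the count tables. Another 29 genes with an Lcn, Obp or Mup symbol are in the same tables. mRNA-seq was performed on whole VNOs of female mice at postnatal day 21, with 18 libraries in 6 groups of 3. In both lines, AP-2εCre and OMPCre, the groups were Smad4 conditional knockouts (cKO: Cre +/- and Smad4 flox/flox), heterozygotes (AP2eCre +/- or OMPCre +/-) and Smad4 flox/flox controls. The sample labels call the last group wild type, and the design text gives them as Smad4 flox/flox, the genotype used here. Each library is labelled a biological replicate. Smad4 is the mediator shared by TGFβ and BMP signaling. AP-2εCre is a knock-in at the gene of a transcription factor of basal vomeronasal sensory neurons (VSNs), and is active in immature basal VSNs. OMPCre is driven by the gene of olfactory marker protein, and is active in mature apical and basal VSNs. The labels describe neither Cre as active in glands, and they name VSNs as the cell type although the RNA was of the whole organ. Another AP-2εCre library, titled as a heterozygote but with the genotype label of a cKO, entered no comparison.

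Lipocalins are small secreted proteins that fold into a barrel around a pocket for hydrophobic molecules. In the nasal fluid they bind odorants and pheromones, and so can carry them through the mucus to the receptors or away from them. Obp1a and the Obp2 proteins are odorant-binding proteins of nasal mucus. Lcn3 and Lcn4 are known as vomeronasal secretory proteins, made by glands of the vomeronasal organ and nasal septum. Major urinary proteins carry pheromones in urine, and Mup4 is a family member that is made in nasal glands.

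Obp2a (chr2:25700043-25703326, plus strand, GRCm38), Obp2b (chr2:25737009-25740097), Lcn3 (chr2:25765569-25768099) and Lcn11 (chr2:25777017-25780279) lie on the same strand within 80.2 kb of chromosome 2. Lcn4 (chr2:26667674-26671282, minus strand) lies 887 kb beyond them. Obp1a is on the X chromosome (chrX:78085505-78091374, minus strand) and Mup4 on chromosome 4 (chr4:59956804-59960710, minus strand). Each gene is represented by 1 transcript in the deposited tables, of 652 (Lcn11) to 922 (Mup4) bases. Since near-identical copies can exchange reads, the transcripts were compared first. Obp2a and Obp2b are the closest pair among the 7 genes, with 71% identity over their aligned transcripts, and the coding parts of their first exons differ at 1 of 87 bases. They are shown because reads of the most abundant pair can be exchanged where the sequences are this alike. Capitals mark the base at which the 2 genes differ.

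Obp2a exon 1 coding part, chr2:25700091-25700177 (plus strand): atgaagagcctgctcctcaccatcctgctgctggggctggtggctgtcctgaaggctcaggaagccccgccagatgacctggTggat
Obp2b exon 1 coding part, chr2:25737057-25737143 (plus strand): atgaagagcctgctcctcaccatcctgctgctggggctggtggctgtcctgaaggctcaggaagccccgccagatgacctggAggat

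Of the 75-base windows of the Obp2a transcript, the length of a read, 56 of 670 (8.36%) were also in another gene, all of them in Obp2b, and 56 of 658 (8.51%) of the Obp2b windows were in Obp2a. No window of Obp1a, Lcn3, Lcn4 or Lcn11 was shared with another gene in the tables. Mup4 shared 3 of 848 windows (0.354%) with Mup5, although the 2 transcripts are 91.9% identical. Most of a read's possible positions in each of the 7 genes were thus specific to it. The odorant-binding protein gene Obp1b, which is not among the 7 and is used below for comparison, shared 475 of 723 windows (65.7%) with Gm14743, so its count is uncertain.

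The promoters were read from RefSeq (GRCm38.p6), from 250 bases before to 50 after each gene's start, and all 7 genes were matched. The motif TATAAA was on the strand of the gene in 5 of them, against 8.32% of 32817 promoters of the same length. It began 30 bases before the start of Obp1a, 61 before that of Obp2a, 28 before that of Obp2b, 29 before that of Lcn3 and 27 before that of Mup4. The RefSeq starts differ from those of the GENCODE genes given above. From the GENCODE starts the motif began 30 bases before Obp1a, Obp2a and Obp2b and 65 before Lcn3, and in Mup4 it began 16 bases inside the gene. The windows of Lcn4 and Lcn11 held no TATAAA. The stretches around the motif are shown because the core promoters of Obp2a and Obp2b are nearly the same: over the 70 bases they differ at 1 base, while their whole windows were 79% identical. Capitals mark the motif.

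Obp2a, chr2:25699963-25700032 (plus strand): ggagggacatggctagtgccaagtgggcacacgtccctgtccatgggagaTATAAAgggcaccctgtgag
Obp2b, chr2:25736929-25736998 (plus strand): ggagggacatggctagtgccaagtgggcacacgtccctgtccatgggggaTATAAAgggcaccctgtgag
Lcn3, chr2:25765454-25765523 (plus strand): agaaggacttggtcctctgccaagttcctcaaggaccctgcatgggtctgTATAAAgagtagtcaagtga
Obp1a, chrX:78091385-78091454 (minus strand): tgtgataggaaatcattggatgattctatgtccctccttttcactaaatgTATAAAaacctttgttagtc
Mup4, chr4:59960675-59960744 (minus strand): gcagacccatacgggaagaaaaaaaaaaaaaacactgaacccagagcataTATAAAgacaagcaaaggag

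CAGAC, a short sequence bound by Smad proteins, was present on either strand in 5 of the 7 windows, with 3 matches in Lcn3, 3 in Mup4 and 1 each in Obp2a, Obp2b and Lcn4. It was present in 49.6% of all promoters of this length. A match is a description of the letters and was not tested as a binding site.

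The libraries held 43385516 to 134042284 estimated counts each (median 63096714.5), so that even Mup4, the least abundant of the 7 genes, was read far above the floor of 3 counts, which is 0.0691 CPM (the count scaled to a common library total) at the lowest total. The 95% Wilson intervals of the genes' shares were at most 0.0088 percentage points to either side, and cover counting error only, so the spread between libraries is the error that matters below. Vomeronasal identity was visible in every library, with Trpc2, the channel of VSNs, at 50.1 to 138 CPM and Omp at 225 to 549 CPM. The targeted gene Smad4, counted over its whole transcripts, was at 33.8 to 66.5 CPM in AP-2εCre cKO and 39.6 to 81 CPM in the controls of that line. It was at 54.4 to 62.5 CPM in OMPCre cKO and 64.8 to 83.9 CPM in their controls. Smad4 was called in neither line (log2 fold change -0.09, adjusted p = 0.955, and -0.35, adjusted p = 0.909, edgeR quasi-likelihood test). In RNA of a whole organ, fewer cells of a type and less RNA per cell cannot be told apart.

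These few genes took up a large part of every library. Together they held 13% to 21% of all estimated counts in the controls of the AP-2εCre line and 9.42% to 20.2% in those of the OMPCre line. In AP-2εCre cKO the share was 8.38%, 11.9% and 9.78%, below each of the 6 controls of that line. In OMPCre cKO it was 15.8%, 15% and 12.5%, within the range of its controls. On the TPM scale, which corrects for transcript length, the 7 genes made up 17.4% to 19.9% of the transcripts in AP-2εCre cKO and 23.6% to 35.4% in their controls. The same share was 23.6% to 25.7% in OMPCre cKO and 19.6% to 29.6% in their controls.

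**Figure D1:**
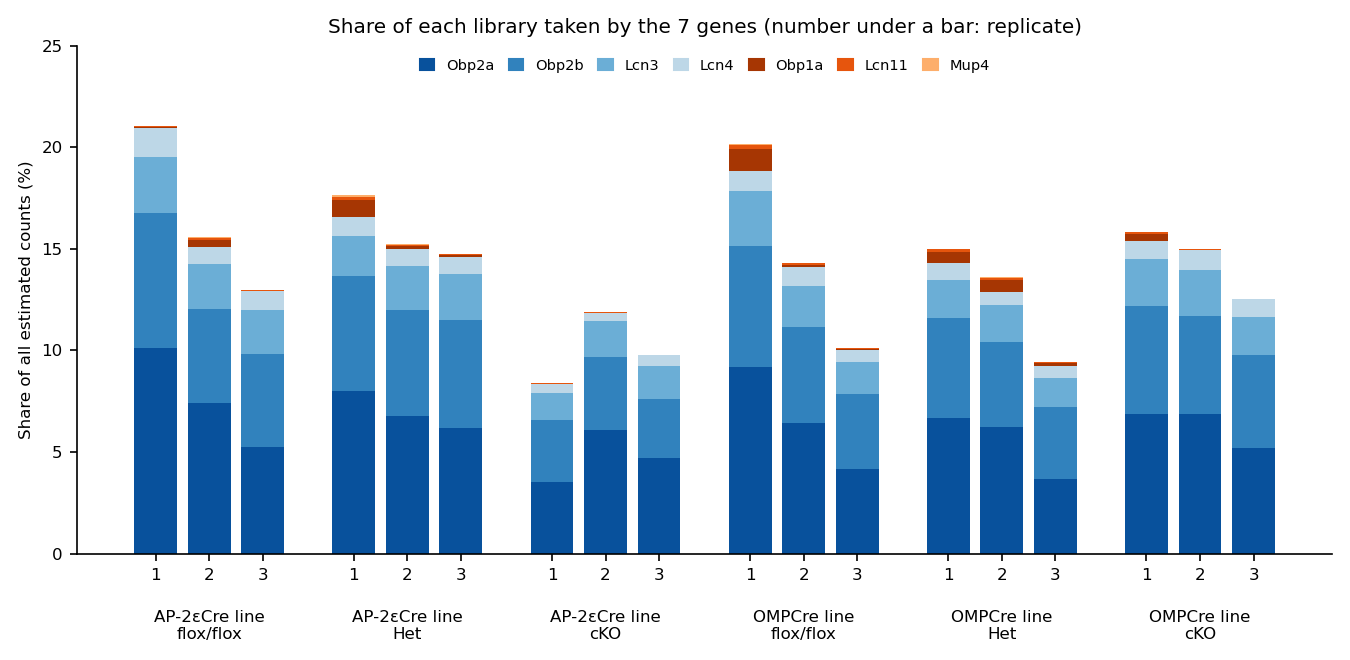
Share of all estimated counts of a library (y axis, %) held by each of the 7 lipocalin genes, as stacked bars, 1 bar for each of the 18 libraries. Obp2a and Obp2b make up most of each bar, the AP-2εCre cKO bars end between 8.38% and 11.9%, and the AP-2εCre-line control bars between 13% and 21%.

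Between genes, levels were compared as TPM over the 12 controls of both lines. Obp2a was the most abundant of all 35596 genes, at 109828 ± 25127 TPM (SD, n = 12), and Obp2b was next, at 83465 ± 12544 TPM. Lcn3 ranked 4 at 39486 ± 6037 TPM and Lcn4 ranked 7 at 13492 ± 3006 TPM. The other genes were lower and far more variable. Obp1a was at 5117 ± 5074 TPM, Lcn11 at 1717 ± 1076 TPM and Mup4 at 347 ± 276 TPM, so that for Obp1a the SD was about as large as the mean. Each gene nonetheless differed from the next in this order by an exact two-sided sign-flip permutation test over the 12 libraries. Obp2a was above Obp2b, Obp2b above Lcn3, Lcn3 above Lcn4, and Lcn11 above Mup4 in 12 of 12 libraries (permutation p = 0.000488, the smallest possible; adjusted over the 6 neighbour pairs, 0.000732). Lcn4 was above Obp1a in 11 of 12 (adjusted permutation p = 0.00176) and Obp1a above Lcn11 in 10 of 12 (adjusted permutation p = 0.0078).

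The step from Obp2a to Obp2b was the smallest, 0.38 ± 0.20 on the log2(TPM + 0.1) scale (SD of the difference over 12 libraries). The steps from Obp2b to Lcn3 and from Lcn3 to Lcn4 were 1.08 ± 0.13 and 1.56 ± 0.15. The step from Lcn4 to Obp1a was 2.19 ± 1.87 and that from Obp1a to Lcn11 was 1.01 ± 0.97. The CPM ratio of Obp2a to Obp2b followed the form of the library name in the deposited data, which is either a letter and a number or the name of the line and a number. It was 1.3 to 1.69 in the 12 libraries of the letter form and 1.05 to 1.17 in the 6 of the line form, with no overlap. Both forms are present in every group, 2 and 1 libraries respectively, and what the forms stand for is not stated.

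Within groups, the 7 genes formed a steady and a variable set. The SD of log2(CPM + 1) within groups, pooled over the 6 groups with 12 degrees of freedom, was 0.51 for Obp2a, 0.33 for Obp2b, 0.32 for Lcn3 and 0.35 for Lcn4. It was 2.17 for Obp1a, 1.72 for Mup4 and 1.16 for Lcn11. Over the 12 controls, the highest Obp1a library (12249 CPM) was 45.1 times the lowest (271 CPM), and the same ratio was 26.4 for Mup4 and 11.5 for Lcn11. For Obp2a, Obp2b, Lcn3 and Lcn4 it was 3.48, 2.4, 2.41 and 3. Lcn11 belongs to the variable set although its gene lies in the 80.2 kb of chromosome 2 that also hold the steady genes Obp2a, Obp2b and Lcn3.

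Joint variation of the genes was described next. Deviations from the group means of log2(CPM + 1) were correlated over the 18 libraries, as a description with no test, since all points share library, depth and scaling. Among Obp1a, Lcn11 and Mup4, which lie on 3 different chromosomes, Pearson's r of the 3 pairs was 0.92 to 0.95 (Spearman's rho 0.95 to 0.97). Without the 2 libraries farthest from the median of the first gene of a pair it was 0.92 to 0.94. Among Obp2a, Obp2b, Lcn3 and Lcn4 r was 0.79 to 0.94 (rho 0.71 to 0.94), and 0.68 to 0.92 without 2 libraries. Lcn4, which lies apart from the other chromosome 2 genes, had the lowest values in that set, 0.79 to 0.85. Between the sets r was 0.34 to 0.78 (median 0.61), lowest for Lcn4 with Obp1a and highest for Obp2a with Lcn11. These values pool the forms of library name, whose levels differ: the median of Obp1a was 2447 CPM in the letter form and 308 in the line form, and that of Mup4 262 and 50.3 CPM. In the 12 libraries of the letter form alone r was 0.91 to 0.95 among Obp1a, Lcn11 and Mup4, 0.58 to 0.96 among the steady genes, and -0.33 to 0.60 between the sets. The median over the 21 pairs was 0.75 in all libraries and 0.49 in the letter form.

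**Figure D2:**
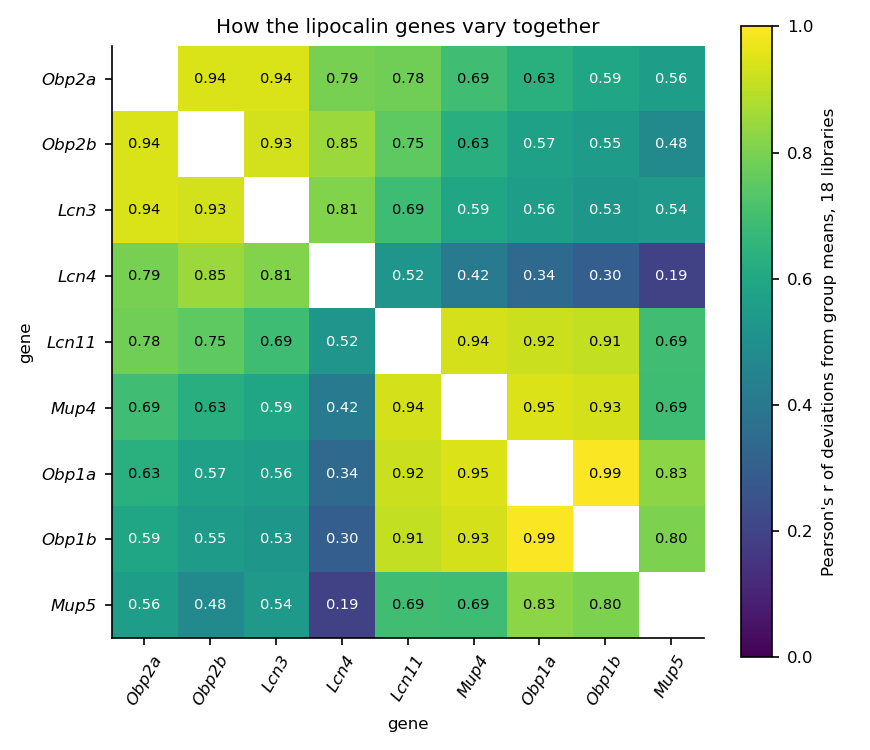
Pearson's r (colour and number) between the deviations of log2(CPM + 1) from the group means over 18 libraries, for the 7 genes and the related genes Obp1b and Mup5 (rows and columns). The block of Obp2a, Obp2b, Lcn3 and Lcn4 and the block of Lcn11, Mup4, Obp1a and Obp1b hold values of 0.79 or more, and values between the blocks reach at most 0.78.

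Obp1b, whose gene lies 95.4 kb from Obp1a, followed Obp1a most closely (r = 0.99), with a CPM ratio of Obp1a to Obp1b of 0.559 to 1.08 in the 18 libraries. The correlation of Mup5 with Mup4 was lower than that with Obp1a (r = 0.69 and 0.83), although Mup5 is the close copy of Mup4. Of 15804 genes with a mean of at least 1 CPM, the 10 whose deviations were most like the mean of the 7 genes had r of 0.91 to 0.95 over the 18 libraries. They were Gm14744, 5430402E10Rik, Obp1b, 1700016C15Rik, G0s2, Gm14743, Scgb1b27, Hscb, Ddah1 and Tram1. The mean of the 7 is unweighted, so the variable genes Obp1a, Mup4 and Lcn11, with the largest deviations, weigh most in it. Gm14744 (r = 0.95, mean 3521 CPM), 5430402E10Rik (r = 0.94, mean 2648 CPM), Obp1b (r = 0.93, mean 2639.8 CPM) and Gm14743 (r = 0.92, mean 1614 CPM) are neighbours of Obp1a on the X chromosome, 95.4 to 215 kb away. Scgb1b27 (mean 113 CPM) encodes a secretoglobin, another kind of small secreted protein. Tram1 (mean 237 CPM) encodes a protein of the channel through which secreted proteins enter the endoplasmic reticulum.

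The first comparison asked what removal of Smad4 from immature basal VSNs changed in the organ, and here what it left of the secreted lipocalins. All 7 genes were lower in the 3 AP-2εCre cKO libraries than in the mean of the 6 controls of the line, from 1.64-fold (Lcn3) to 67-fold (Obp1a). These are ratios of mean CPM, and the highest rested on single libraries. Without heterozygote replicate 1 the ratio was 35.7 for Obp1a and 10.7, in place of 16.5, for Mup4. Without cKO replicate 2 it was 109 for Obp1a and 25.4 for Mup4. For 6 of the 7, all but Obp2a, every cKO library was below every control. None of them passed the adjusted threshold across all genes in edgeR, so the values are given as measured. Lcn4 was at 16432, 8811 and 8706 CPM in the flox/flox controls, 10106, 8543 and 8196 in the heterozygotes and 4187, 3730.3 and 5063 in cKO. The highest cKO library was thus well under the lowest control. Lcn3 was at 32787, 23197 and 20417 CPM in flox/flox controls, 21757, 21689 and 22720.4 in heterozygotes and 11678, 16681 and 15218 in cKO. For Obp2b the values were 77868, 48658 and 42914 CPM in flox/flox, 62253, 51788 and 53397 in heterozygous and 26834, 34486 and 27342 in cKO libraries. Both genes had cKO values below the range of the controls, but closer to it than Lcn4. Obp2a was at 119007, 77813 and 49197 CPM in the flox/flox, 88136, 67642 and 61760.4 in the heterozygous and 31348, 58330.5 and 44639 in the cKO libraries. Here the groups overlapped, since flox/flox replicate 3 was below cKO replicate 2.

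The variable set differed by far larger factors. Obp1a was at 486, 3921 and 271 CPM in flox/flox controls, 9244, 1449 and 1263 in heterozygotes and 33.7, 73 and 17.4 in cKO. The lowest control was 271 CPM and the highest cKO library 73 CPM. Mup4 was at 174, 445 and 65.3 CPM in flox/flox, 928, 284 and 112 in heterozygous and 21.1, 34.5 and 5.31 in cKO libraries. Lcn11 was at 605, 1090.2 and 348 CPM in flox/flox, 1833, 478 and 489 in heterozygous and 200.1, 291 and 101.2 in cKO libraries. For Mup4 and Lcn11 the gap between the groups was narrow beside the spread of the controls. Obp1a was lower even relative to Lcn11: the CPM ratio of Obp1a to Lcn11 was 0.168 to 0.251 in the 3 cKO and 0.779 to 5.04 in the 6 controls. A ratio chosen after the values were seen is given with no test.

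**Figure D3:**
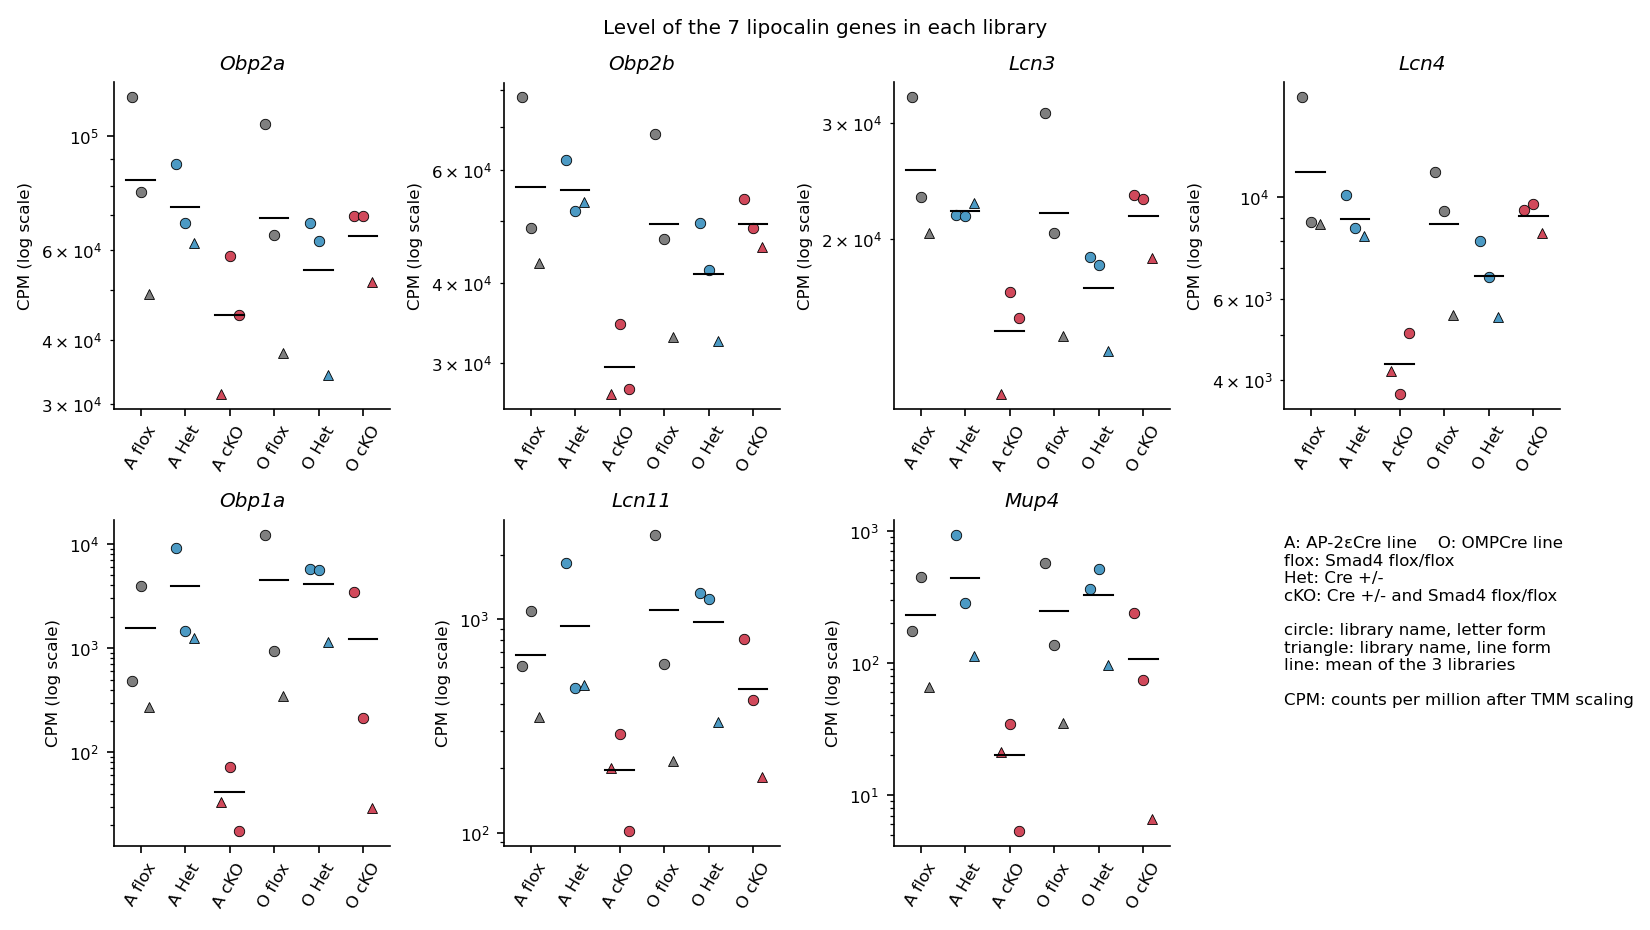
Level of each of the 7 lipocalin genes (y axis, CPM after TMM scaling, log scale, 1 panel per gene) in each library of the 6 groups (x axis), with the mean of the 3 libraries as a line and the form of the library name as the symbol. In the AP-2εCre line the 3 cKO points lie below all 6 controls in every panel except that of Obp2a, while the OMPCre cKO points overlap their controls in each panel.

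The log2 fold changes of cKO over controls in edgeR's test across all genes were -1.22 for Lcn4 (SE 0.24, adjusted p = 0.249), -0.71 for Lcn3 (SE 0.19, adjusted p = 0.308), -0.92 for Obp2b (SE 0.21, adjusted p = 0.269) and -0.78 for Obp2a (SE 0.30, adjusted p = 0.403). For Obp1a the value was -6.06 (SE 1.33, adjusted p = 0.257), for Mup4 -4.03 (SE 0.98, adjusted p = 0.269) and for Lcn11 -2.03 (SE 0.57, adjusted p = 0.317). With 1 library left out in turn, these values ranged from -6.76 to -5.15 for Obp1a, -4.66 to -3.40 for Mup4 and -2.42 to -1.60 for Lcn11, in each case nearest 0 without heterozygote replicate 1 and lowest without cKO replicate 2. They ranged from -1.35 to -1.03 for Lcn4, -1.05 to -0.81 for Obp2b, -1.02 to -0.58 for Obp2a and -0.82 to -0.57 for Lcn3. In this comparison 7 of 18495 genes were called (0.0378%), and 0 of the 7 lipocalins. At an unadjusted p under 0.05 in edgeR all 7 were lower, against 6.04% of the genes tested that were lower at that threshold. Complete separation of cKO below controls was seen for 6 of 7, against 2.85% of the genes tested. Their median log2 fold change was -1.22, and that of all genes 0.0030. These 7 genes were chosen with earlier results of these data known, and they vary together in part. The shares are thus a description and no test of the set. Taken singly on log2(CPM + 1), the exact two-sided permutation p was 0.0119, the smallest that 84 splits of 3 against 6 allow, for Obp1a, Obp2b, Lcn3, Lcn4 and Mup4. It was 0.0238 for Lcn11 and 0.0476 for Obp2a. These p-values are not adjusted. They belong to 35 such tests in 5 comparisons, of which the 14 between heterozygotes and flox/flox controls could not go under 0.05.

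The count of calls depended on the tool. DESeq2 called 309 of 18495 genes (1.67%, of which 258 lower, 1.39%), and among them 5 of the 7 lipocalins: Lcn4 (adjusted p = 1.95e-06), Obp2b (3.24e-05), Obp1a (4.88e-05), Lcn3 (0.00206) and Mup4 (0.00224). Obp2a (adjusted p = 0.231) and Lcn11 (0.0802) were not called by DESeq2. In counts simulated for this design with 200 genes changed by a log2 fold of 1 among 18207, 24.8% of the genes that DESeq2 called had not been changed, and 3.01% of those that edgeR called. DESeq2 recovered 79% of the changed genes and edgeR 64.5%. The counts were drawn once, with the spread between libraries that edgeR estimated. These shares therefore give no rate of false calls for the 5 lipocalins.

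The direction was the same in both forms of library name. On log2(CPM + 1), among libraries of the letter form (4 controls and 2 cKO) the difference was between -0.62 (Lcn3) and -5.93 (Obp1a). In the line form (2 controls and 1 cKO) it was between -0.81 (Obp2a) and -4.08 (Obp1a), all 7 below 0 in both. Against the flox/flox controls alone, the edgeR log2 fold changes were -1.39 for Lcn4 and -5.23 for Obp1a. Against the heterozygotes alone they were -1.04 and -6.58.

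Markers of the cell types that a whole VNO can hold were examined in the same comparison, and none was called in edgeR. DESeq2, which called 1.67% of all genes tested here, called 7 of them: the gland cell markers Spdef (adjusted p = 0.0356) and Bhlha15 (0.0341), the ciliated cell markers Dnah9 (0.00334), Dnah5 (0.0174) and Ccdc39 (0.0372), and Ano1 (0.0451) of the vomeronasal neurons, all lower, and Rtp1 (0.0404) of the main olfactory neurons, which was higher. Of 15 gland cell markers 14 were lower, 10 of them at an unadjusted p under 0.05 and 0 called in edgeR, with a median log2 fold change of -0.39. Spdef, a transcription factor of secretory cells, had the smallest p (log2 fold change -0.75, adjusted p = 0.317). Their summed level was 1502 to 1653 CPM in cKO and 1499.5 to 1998 CPM in controls. Of 20 tested secretory proteins of glands, 14 were lower, with a median of -0.36 and a summed level of 27797 to 40225 CPM against 37868 to 70008 CPM. Most of that sum was Dmbt1, a mucosal glycoprotein named here for its level after the values were seen, at 17525 to 26908 CPM in cKO and 24668 to 53812 CPM in controls. Lyz1, a lysozyme gene, was on the opposite side with the smallest p of that list (log2 fold change 2.76, adjusted p = 0.345). Its value rests on 1 cKO library at 202 CPM, since the others lay within the 2.79 to 23 CPM of the controls.

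All 8 markers of ciliated cells were lower (median -0.49, summed level 422 to 663 CPM in cKO and 682 to 865 CPM in controls). The smallest p was that of Dnah9, a dynein of motile cilia (log2 fold change -0.72, adjusted p = 0.269). Of 8 sustentacular markers 7 were lower (median -0.25, summed level 1359 to 1969 CPM against 1717 to 3887 CPM), with Cyp2a5, an enzyme of olfactory mucosa, at -1.37 (adjusted p = 0.346). Of 11 markers of vomeronasal neurons 7 were higher and 4 lower, with 1 at an unadjusted p under 0.05 in each direction (median 0.14, summed level 1724 to 1919 CPM in cKO and 1347 to 1780.3 CPM in controls). Of 8 markers for neurons of the main olfactory epithelium 7 were higher (median 0.14, 619 to 691 CPM against 501 to 647 CPM). The smallest p in these lists belonged to the chloride channel gene Ano1 (log2 fold change -0.41, adjusted p = 0.317) and to Rtp1, a chaperone of odorant receptors (log2 fold change 0.39, adjusted p = 0.308). Higher values in 4 of 6 endothelial, 4 of 5 blood, 6 of 6 immune, 2 of 4 skeletal muscle and 3 of 6 cartilage and bone markers came with no call in edgeR or DESeq2. The smallest p of each was that of Pecam1 (log2 fold change 1.31), Alas2 (0.38), Csf1r (0.25), Tnnt3 (1.15) and Bglap (0.49). The endothelial markers summed to 217 to 1503 CPM in cKO and 223 to 759.8 CPM in controls. The skeletal muscle genes were near 0, with a summed level of 2.77 to 4.08 CPM in the 9 libraries. What part the makeup of the dissected tissue had in the levels of the 7 lipocalins was not tested.

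Other lipocalins were measured in the same libraries. Of the 29 other genes with an Lcn, Obp or Mup symbol, 4 had a mean of at least 1 CPM (Obp1b, Mup5, Lcn2 and Mup7), 25 were under 1 CPM, and 8 had no count in the 18 libraries. In AP-2εCre cKO against controls 6 of the 29 passed the filter on low counts, and none was called in edgeR. DESeq2, which called 1.67% of all genes tested here, called 3 of them, Mup9 (adjusted p = 3.11e-06), Obp1b (6.79e-06) and Mup5 (0.00451). Mup6 and Mup9 passed the filter through the controls, with means of 0.541 and 1.84 CPM there and 0.132 and 0.0245 CPM in cKO. No direction is thus read from the number of genes that were lower, nor from the call of Mup9. Obp1b had the smallest p (log2 fold change -5.94, SE 1.28, adjusted p = 0.257), close to the value of Obp1a, and Mup5 was at -4.98 (SE 1.57, adjusted p = 0.343). Among lipocalins of other names, 6 of 9 were tested and 5 were lower, with Apod, a carrier of lipids, at -0.41 (SE 0.12, adjusted p = 0.324).

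The second comparison asked the same of Smad4 removal from mature VSNs of both kinds. In the OMPCre line the steady genes had nearly the same means in cKO and controls. Lcn4 was at 11303, 9315 and 5548 CPM in flox/flox controls, 8018, 6686 and 5482 in heterozygotes and 9340.2, 9634 and 8327 in cKO. Lcn3 was at 31076, 20413 and 14269.6 CPM in flox/flox, 18832, 18312 and 13585 in heterozygous and 23320.3, 22981 and 18750.5 in cKO libraries. The cKO values of both genes lay within those of the controls. Obp2a was at 105408, 63942 and 37681 CPM in flox/flox, 67546, 62273 and 34196 in heterozygous and 69879, 69773 and 51921 in cKO libraries. Obp2b was at 68256, 46806 and 32939.7 CPM in flox/flox, 49592, 41896 and 32422 in heterozygous and 53952, 48695 and 45468 in cKO libraries. The controls of these 4 genes were lowest in replicate 3 of both control groups, the libraries of the line form, and the cKO replicate 3, of the same form, was also the lowest of its group.

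The variable genes were spread widely in all 3 groups. Obp1a was at 12249, 947 and 344 CPM in flox/flox controls, 5692, 5593 and 1157 in heterozygotes and 3445, 216 and 29.4 in cKO. Lcn11 was at 2488, 617 and 217 CPM in flox/flox, 1324, 1248 and 328 in heterozygous and 805, 419 and 183 in cKO libraries. Mup4 was at 566, 136 and 35.2 CPM in flox/flox, 362, 512 and 96.5 in heterozygous and 239.7, 73.6 and 6.63 in cKO libraries. Replicate 3 of the cKO was the lowest of the 9 libraries for each of these genes, and replicate 1 of the cKO was among the controls. Replicate 2 of the cKO was below all 6 controls for Obp1a and among them for Lcn11 and Mup4. The CPM ratio of Obp1a to Lcn11 was 4.28, 0.515 and 0.161 in the 3 cKO and 1.53 to 4.92 in the 6 controls, again with no test.

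In edgeR 0 of 18623 genes (0%) were called in this comparison, and 0 of the 7 lipocalins, of which none had an unadjusted p under 0.05. DESeq2 called 42 genes and none of the 7. All 7 overlapped between cKO and controls, while 2.35% of the genes tested did not. The log2 fold changes of the steady genes were 0.24 for Lcn4 (95% interval -0.27 to 0.74), 0.16 for Lcn3 (-0.38 to 0.70), 0.12 for Obp2b (-0.38 to 0.63) and 0.05 for Obp2a (-0.67 to 0.77), each with an adjusted p of 1. The intervals of the AP-2εCre line were -1.76 to -0.68 for Lcn4 and -1.39 to -0.46 for Obp2b. They were -1.13 to -0.29 for Lcn3 and -1.44 to -0.13 for Obp2a, and for these genes the intervals of the lines overlapped. The difference between the lines is tested below. In the OMPCre line the intervals of the variable genes were wide. They were -5.06 to 1.45 around -1.80 for Obp1a and -3.81 to 1.00 around -1.41 for Mup4. For Lcn11 the interval was -2.85 to 0.57 around -1.14. With 1 library left out in turn the value of Obp1a ranged from -5.15 to -1.15. Within each replicate number the cKO library was below both controls for Obp1a, Lcn11 and Mup4, in 3 of 3 numbers. It was so for none of the 4 steady genes in any number. The share of all genes with this pattern was not computed, and these 3 genes vary together, so the count is a description only. With the replicate number as a block the log2 fold changes were -3.13 for Obp1a (SE 0.94, adjusted p = 0.772, edgeR), -2.01 for Mup4 (SE 0.62, adjusted p = 0.781) and -0.98 for Lcn11 (SE 0.30, adjusted p = 0.781), all 3 with an unadjusted p under 0.05, as had 5.47% of the genes tested in that fit. The labels give the numbers as biological replicates and state no pairing. Same-numbered libraries of this line had correlated deviations of 0.022 to 0.52, with a mean of 0.24. The mean was -0.12 between libraries of different numbers. Replicate 3 was the library of the line form in each group of this line, so number and form of name are in part the same.

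Gland cell markers in this line were lower in 10 of 15 with a median of -0.05, and 12 of 20 tested secretory proteins were lower with a median of -0.09. The smallest p in these lists were those of Krt8, a keratin (log2 fold change 0.22), and Bpifb3, a secreted protein of nasal glands (-1.42), both with an adjusted p of 1. None of the listed markers was called by edgeR or DESeq2. The summed gland cell markers were at 1655 to 1876 CPM in cKO and 1520.2 to 2025 CPM in controls. Of the other genes with an Lcn, Obp or Mup symbol 8 were tested, none with an unadjusted p under 0.05. Mup15, which had the smallest p, had at most 57 counts in any library and none in OMPCre cKO, and so passed the filter through the controls. Obp1b was at -1.78 (SE 1.37, adjusted p = 1).

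**Figure D4:**
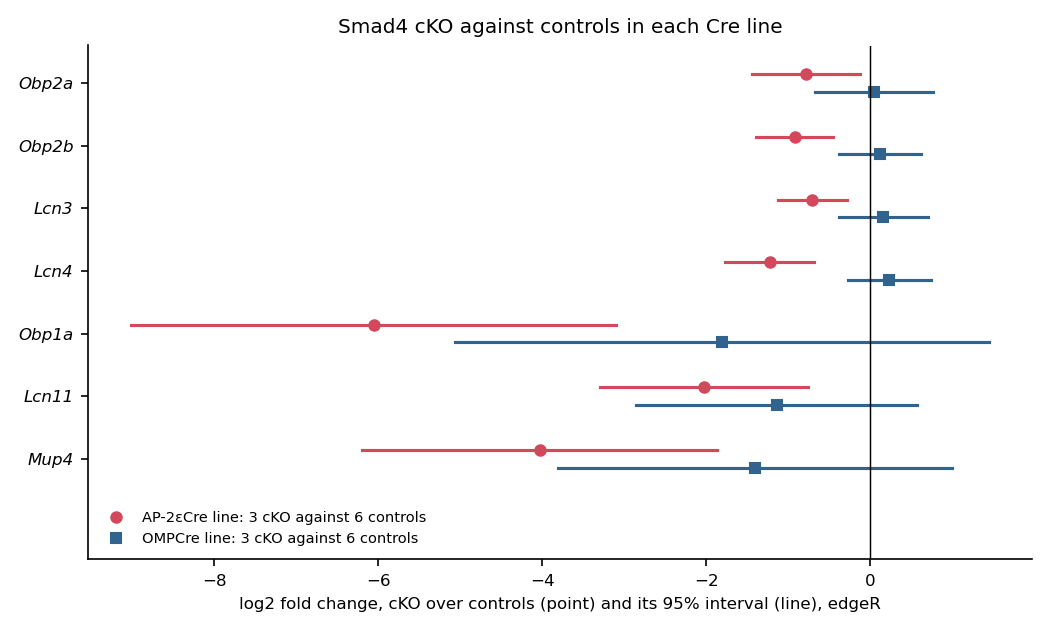
Log2 fold change of Smad4 cKO over the 6 controls of the same line (x axis; point, edgeR estimate; line, 95% interval) for each lipocalin gene (y axis), in the AP-2εCre line (circles) and the OMPCre line (squares). The 7 intervals of the AP-2εCre line lie below 0 and those of the OMPCre line include 0.

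Whether cKO changed the lipocalins differently in the 2 lines was tested with an interaction term, fitted to the 18 libraries. It was below 0 for all 7 genes, from -0.84 (Obp2a) to -4.10 (Obp1a). In edgeR 1 of 19465 genes was called (0.00514%) and 0 of the 7, of which 3 had an unadjusted p under 0.05, as had 5.05% of the genes tested: Lcn4 (log2 difference -1.47, SE 0.33, adjusted p = 0.601), Obp2b (-1.06, SE 0.32, adjusted p = 0.827) and Lcn3 (-0.88, SE 0.30, adjusted p = 0.934). DESeq2 called 50 of the 19465 genes, and Lcn4 alone of the 7 (adjusted p = 0.0012). The difference was -4.10 for Obp1a (95% interval -8.20 to 0.0023), -2.56 for Mup4 (-5.66 to 0.54) and -0.87 for Lcn11 (-3.02 to 1.28). These values rested on single libraries: with 1 left out in turn they ranged from -5.51 to -0.77 for Obp1a, -3.33 to -1.15 for Mup4 and -1.58 to -0.23 for Lcn11, in each case lowest without OMPCre flox/flox replicate 1 and nearest 0 without OMPCre cKO replicate 1.

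The controls were then compared with each other. Between heterozygotes and flox/flox controls of the AP-2εCre line 4 of 17827 genes were called in edgeR (0.0224%), and in the OMPCre line 8 of 18124 (0.0441%), with none of the 7 lipocalins in either, by DESeq2 either, and none at an unadjusted p under 0.05. DESeq2 called 168 and 159 genes. In the AP-2εCre line the log2 fold changes of heterozygotes over flox/flox were -0.34 (Lcn4) to -0.01 (Obp2b) for the steady genes and 0.46 (Lcn11), 0.95 (Mup4) and 1.35 (Obp1a) for the variable ones. In the OMPCre line they were -0.37 (Lcn4) to 0.40 (Mup4). All groups overlapped, and 3 libraries against 3 allow no exact permutation p under 0.1. Between the 6 controls of the AP-2εCre line and the 6 of the OMPCre line 17 of 17912 genes were called (0.0949%), again none of the 7 by edgeR or DESeq2 and none with an unadjusted p under 0.05. The 4 steady genes were somewhat higher in the AP-2εCre line, by 0.29 (Lcn3) to 0.39 (Lcn4) on the log2 scale, with permutation p of 0.117 to 0.249 over 6 against 6 libraries. Markers of other cells were examined in the same comparison. Of the ciliated markers 8 of 8 were higher in the AP-2εCre line, 3 of them at an unadjusted p under 0.05 (median 0.37, summed level 682 to 865 CPM against 392 to 787 CPM). Of the gland secretory proteins 14 of 20 were higher, 7 at that threshold (median 0.33, 37868 to 70008 CPM against 30808 to 42498 CPM). Cartilage and bone markers were higher in 6 of 6, 1 at that threshold. Skeletal muscle markers were lower in the 3 of 5 that were tested, all at that threshold. The 5 muscle genes summed to 2.77 to 4.08 CPM in the AP-2εCre line. In the OMPCre line the sum was 3.27 to 112 CPM, with an SD of 43.6 around a mean of 22.7. No direction is read from genes this near 0. Blood markers were lower in 4 of 5, and Alas2, an enzyme of heme synthesis in red blood cells, was called (log2 fold change -0.90, SE 0.12, adjusted p = 0.0106, edgeR). The part of these cells in the levels of the lipocalins was not tested. For Obp1a, Lcn11 and Mup4 the values were -0.65, -0.37 and 0.23.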

How the data were processed

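The authors prepared stranded polyA+ libraries from whole VNOs, sequenced 75-base single reads and quantified them with Salmon 0.14.0 against Ensembl sequences of the mm10 (GRCm38) mouse genome, then used DESeq2 1.22.2 (versions per the submitters' processing notes and the methods). The deposited values are an estimated count per transcript, not normalized, and a TPM value, which the authors' quantification scales by transcript length to a fixed total per library. No replicates were pooled. The Length given for each of the 7 transcripts equals that of the whole transcript in GENCODE vM21, whereas the methods name coding sequences as the reference. For these genes the coding lengths are 489 to 561 bases.

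Estimated counts and TPM were summed per gene with GENCODE vM21. The 176 transcripts with no gene there, holding at most 0.0324% of a library, were left out. Sums were rounded to whole counts. Genes were tested with edgeR 4.0.16 (glmQLFit, glmQLFTest, TMM, filterByExpr, Benjamini-Hochberg over all genes tested, threshold 0.05), and DESeq2 1.42.0 and limma 3.58.1 were alternatives. All 7 genes passed the filter in every comparison. All p-values are two-sided. CPM are TMM-scaled over the 18 libraries, with a pseudocount of 1 on the log2 scale (0.1 for TPM). The fits were tested on simulated data. The 7 genes and all lists were chosen with earlier results of these data known. The gene with the smallest p is named in each list for AP-2εCre cKO, and for OMPCre cKO in the gland lists and among the other lipocalins. edgeR called no listed gene in either. Between the controls of the lines the called gene is named (Alas2). List genes called by DESeq2 were named after their values were seen. No 2 libraries of a group were near-identical, and same-numbered libraries did not deviate together in every pair, so replicate numbers were not taken as pairs. Biopython 1.88 was used for alignments.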

Additional observations from a re-analysis of the deposited data

Results flagged for a closer look

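In the 6 controls of the AP-2εCre line, flox/flox replicate 1 stood apart from the others for 2 of the lipocalin genes, by a gap of 0.775 of the whole range for Lcn3 (32787 CPM, against 20417 to 23197 CPM in the other 5) and of 0.768 for Lcn4 (16432 CPM, against 8196 to 10106 CPM). In 14 sets of 6 controls examined, chance flags about 1 in 20. Without this library the log2 fold change of AP-2εCre cKO over controls was -0.59 for Lcn3 (adjusted p = 0.278) and -1.03 for Lcn4 (adjusted p = 0.0562, edgeR).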

How the results depend on the processing

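Across the alternatives the 7 lipocalins were lower in AP-2εCre cKO in each setting, and the number called stayed at 0 in edgeR and limma. DESeq2 called 5 in AP-2εCre cKO and 1 (Lcn4) in the difference between lines. When 1 library at a time was left out, the number called was 0 to 0 in all 6 comparisons, 6 of 6 neighbour pairs in the order of levels remained past the threshold, and 5 to 10 of 35 exact permutation tests had p under 0.05 (7 with all libraries). In limma on log2(TPM + 0.1) the median of all genes was 0.27 in AP-2εCre cKO, 0.12 in OMPCre heterozygotes and 0.29 in the difference between lines, against -0.92, -0.10 and -0.79 for the 7 genes. Over all genes, the calls in AP-2εCre cKO (7) became 309 with DESeq2, 2 with the form of library name as a covariate, 4 on TPM, 16 with all 18 libraries in 1 fit and 24 against flox/flox alone. In OMPCre cKO (0) they became 42, 1, 0, 15 and 0, with 11 against heterozygotes alone and 2 with the 7 genes left out of the scaling. In heterozygotes of the AP-2εCre line (4) they became 168 with DESeq2, 2 with the form, 11 on TPM, 33 in 1 fit and 8 without the filter. DESeq2 called 159, 50 and 98 genes in OMPCre heterozygotes (8), in the difference between lines (1) and between the controls of the lines (17). That difference had 2, 2 and 3 calls with the form, without the filter and on TPM. The median r of the 21 pairs of genes was 0.75, 0.49 with the letter form of library name alone, and 0.63 to 0.81 with 1 library left out (lowest without OMPCre flox/flox replicate 1).

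With the replicate number as a block, 0 of the 7 were called in each comparison and the calls in AP-2εCre cKO went from 7 to 2 of all genes, those in OMPCre heterozygotes from 8 to 2, and those of the difference between lines from 1 to 0. Same-numbered libraries had correlated deviations of -0.31 to 0.19 (AP-2εCre line) and 0.022 to 0.52 (OMPCre line), and 1 of 9 and 7 of 9 libraries correlated best with their own number. The block turned the sign of the heterozygote difference of Obp2b (AP-2εCre line, 0.030) and, in the OMPCre line, of Obp1a (1.15) and Lcn11 (0.25).

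None of the 7 genes was called in edgeR in any comparison, and some signs turned. In OMPCre cKO against flox/flox alone Obp2a was -0.11, Obp2b -0.0016 and Lcn3 -0.018. For heterozygotes, the form of library name as a covariate gave 0.0077 (Obp2b, AP-2εCre line), 0.41 (Obp1a) and 0.017 (Lcn11, both OMPCre line), and limma on TPM gave 0.056, 1.19 and 0.35. With 1 library left out, Obp2a in OMPCre cKO ranged from -0.078 to 0.26. Heterozygotes of the AP-2εCre line ranged from -0.20 to 3.40 (Obp1a), -0.44 to 0.19 (Obp2a), -0.18 to 0.29 (Obp2b), -0.34 to 0.017 (Lcn3), -0.49 to 0.032 (Lcn4), -0.49 to 0.97 (Lcn11) and -0.20 to 1.89 (Mup4). Those of the OMPCre line ranged from -0.67 to 2.69 (Obp1a), -0.63 to 0.11 (Obp2a), -0.48 to 0.050 (Obp2b), -0.68 to 1.21 (Lcn11) and -0.12 to 1.92 (Mup4). Between the controls of the lines the ranges were -1.55 to 0.0092 (Obp1a), -0.79 to 0.11 (Lcn11) and -0.40 to 0.55 (Mup4). The cause was not tested. The spread between 3 libraries a group is far above counting error in these comparisons.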

Other observations

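The genes that varied with each set of lipocalins were searched separately, a division made after the values were seen. With the mean of Obp2a, Obp2b, Lcn3 and Lcn4, the closest genes over 18 libraries were Pex11a (r = 0.97, mean 10.6 CPM), which acts in the division of peroxisomes, and Bmyc (r = 0.95, mean 20.9 CPM). These values pool the forms of library name. Bmyc (chr2:25706739-25707721) lies between Obp2a and Obp2b. The next 8 were Plpp5, Srpr, Rexo2, Spcs2, Cldn10, Gm20257, Mia2 and Smap2, with r of 0.92 to 0.94. Of these, Srpr (mean 255 CPM) encodes a subunit of the receptor of the signal recognition particle and Spcs2 (mean 136 CPM) a subunit of the signal peptidase. With the mean of Obp1a, Lcn11 and Mup4, the closest genes were Obp1b, 5430402E10Rik, Gm14744 and Gm14743 (r = 0.96 to 0.97), neighbours of Obp1a on the X chromosome. They were followed by the secretoglobin gene Scgb1b27 (r = 0.93), by G0s2 (r = 0.92) and by Chrm3, a muscarinic acetylcholine receptor (r = 0.91, mean 12.7 CPM). Scgb2b27 (r = 0.90, mean 81.9 CPM) lies beside Scgb1b27 on chromosome 7.

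The AP-2εCre library titled as a heterozygote but with the genotype label of a cKO held 13.6% of its counts in the 7 lipocalins. Scaled together with the other 18, Obp1a was at 994 CPM, Obp2a at 54423, Obp2b at 50717, Lcn3 at 17754, Lcn4 at 9280.4, Lcn11 at 379 and Mup4 at 228 CPM. Its values were above the highest AP-2εCre cKO library for 6 of the 7 genes. Obp2a was within the cKO range of 31376 to 58382 CPM. Against the 6 controls of the line, 6 genes were within the range and Lcn3 was below the lowest control, at 20435 CPM.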
